A study of Mus musculus with 16 samples.

Results

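The genes described here encode the proteasome and its dedicated partners. They were taken by symbol, Psma, Psmb, Psmc, Psmd, Psme, Psmf or Psmg followed by a digit, without the copies that the symbol marks as pseudogenes. This gave 50 genes of 31053 listed for lung and mesenteric lymph node (MLN) and of 32285 listed for the separate lymph node run. The interferon-inducible subunits Psmb8, Psmb9 and Psmb10 were kept apart from the rest. The cells were CD4+ T cells of 4get reporter mice on the C57BL/6 background, in which a cell licensed to express Il4 carries IL-4eGFP. All mice had been infected subcutaneously with the nematode Nippostrongylus brasiliensis (Nb) 10 days before, and no uninfected animal was among the samples. In the first run, CD4+IL-4eGFP+ cells of lung and MLN came from 2 mice aged 13 weeks and gave 4 libraries. In the node run, mediastinal lymph node (medLN) and MLN came from 2 other mice aged 10 weeks. Their cells carried 4 hashtag antibodies and were sorted into IL-4eGFP+ and IL-4eGFP- cells, with 1 library per gate, which gave 8 samples and 12 in all.

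Several features of this model bear on the values. The reporter marks licensed cells, including early stages, rather than cells that secrete IL-4 at the time of the sort, and the gate also holds innate-like and NKT cells. The perfused lung still held some intravascular cells. Lung was digested with enzymes and passed over a density gradient while nodes were mashed, so organ and preparation cannot be told apart. Gate and library cannot be told apart either, because each gate was 1 library. Unique molecular identifiers (UMIs) were summed over the cells of each sample and are given as CPM, which are UMIs scaled to a total of 1000000 per sample outside T-cell receptor genes. Such a sum does not separate a larger number of cells of one kind from more RNA per cell.

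The 26S proteasome degrades proteins tagged with ubiquitin. Its 20S core is a barrel of outer alpha and inner beta rings, in which Psmb5, Psmb6 and Psmb7 encode the proteolytic subunits, and the 19S cap of ATPases (Psmc) and non-ATPases (Psmd) recognises, unfolds and feeds in the substrate. Interferon induces Psmb8, Psmb9 and Psmb10, which take the places of Psmb5, Psmb6 and Psmb7 in the immunoproteasome, and Psme1 and Psme2, which encode the PA28 alpha and beta activator. Lymphocytes express the immunoproteasome also at rest, and it shapes the peptides presented on MHC class I.

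The inducible genes lie in 2 tight groups on the mouse genome (GRCm38, GENCODE annotation). On chromosome 17, within the MHC, Psmb8 spans chr17:34197721-34201454 on the plus strand and Psmb9 spans chr17:34181987-34187764 on the minus strand. The peptide transporter gene Tap1 lies between them, 495 bases from Psmb8. Its start overlaps the start of Psmb9 by 212 bases on the opposite strand. Reads in that overlap could belong to either gene, since the use of strand in counting is not given in the sources used here. On chromosome 14, Psme1 at chr14:55578123-55581529 and Psme2 at chr14:55587441-55591113 are 5911 bases apart on opposite strands. Psmb10 stands alone on chromosome 8. The constitutive partners lie elsewhere, with Psmb5 at chr14:54614119-54618022 on the minus strand, Psmb6 at chr11:70525367-70527858 on the plus strand and Psmb7 at chr2:38588036-38644087 on the minus strand.

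Windows of 300 bases around the start, of which 250 lie before it, were present for 42 of the 50 genes in RefSeq (GRCm38.p6). Both strands were searched for 3 letter patterns, the core read by interferon regulatory factors (GAAANNGAA), the gamma-activated core (TTCNNNGAA, the same on both strands) and the antioxidant response core read by Nrf1 and Nrf2 (TGACNNNGC). Of the inducible genes and their constitutive partners, whose values are given in every comparison, 4 held 1 match each, and none of these matches overlapped one of another pattern. They are shown with 10 bases on each side, 5′ to 3′ on the gene's strand, with the match in capitals. The Psmb8 stretch is chr17:34198088-34198116 and the Psme1 stretch chr14:55578494-55578522, both in an annotated untranslated exon part. The Psmb5 stretch is chr14:54618024-54618052 on the minus strand and the Psmb6 stretch chr11:70525338-70525366, both before the annotated start.
Psmb8, gamma-activated core: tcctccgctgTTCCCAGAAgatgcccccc
Psme1, interferon response core read on the other strand: gagctgtgctTTCGCTTTCccttcccgct
Psmb5, antioxidant response core: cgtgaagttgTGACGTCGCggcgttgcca
Psmb6, antioxidant response core: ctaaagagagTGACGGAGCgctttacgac
The windows of Psmb9, Psmb10 and Psme2 held none of the 3 patterns. Psmb7 had no window and was not searched. The interferon response core stood in the windows of 16.7% of the 42 proteasome genes and in 8.56% of all 32851 windows. The gamma-activated core stood in 7.14% and 8.3%, and the antioxidant response core in 14.3% and 12.4%. The first share of each pair counts genes and the second windows, and Psma6, Psmc2 and Psme2 had 2 windows each. Beside Psme1, the interferon response core stood in the windows of Psmb3, Psmb4, Psmc2, Psmd4, Psmd9 and Psmg4. The gamma-activated core was also found for Psmg1 and Psmd2, and the antioxidant response core for Psmc6, Psmd9, Psmd12 and Psme4. A match is a match of letters in this window only.

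After filtering, 21462 cells remained, 416 to 2462 per sample. The sums held 2798232 to 14512767 UMIs per library in the lung and MLN run and 7546083 to 10636927 per sample in the node run, with medians per cell of 4971 to 6910 and 3165.5 to 3666.5 UMIs. The reporter labels could be checked on Il4 itself, which stood at 388 to 447 CPM in lung, 318 to 397 CPM in MLN, 153 to 188 CPM in IL-4eGFP+ node samples and at most 0.399 CPM in IL-4eGFP- samples. The 5 T cell markers together gave 3808 to 5195 CPM in every sample. B cell markers reached 45.4 CPM, myeloid markers 219 CPM and CD8 markers 24.0 CPM at most, and the 4 lung epithelial markers 9.84 CPM, of which Sftpc and Sftpb had no UMI, Scgb1a1 had 2 UMIs in all and Epcam 677. The myeloid sum was mostly Cst3, with 12138 UMIs in all, beside 1774 of Lyz2, 543 of Fcer1g, 126 of Csf1r and 55 of Itgam. The 5 exocrine pancreas markers stood at 86.5 CPM in MLN 2 of the first run and at no more than 4.91 CPM in any other sample. The libraries of the 2 gates, with 8674 and 8074 cells, shared 113 cell barcodes. Any other pair of libraries shared at most 30, seen for MLN 1 and IL-4eGFP- with 2462 and 8674 cells. Larger libraries can share more barcodes, and the number expected by chance was not computed.

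Proteasome transcripts were abundant in every sample. The 50 genes together gave 5609 to 5988 CPM in lung, 6974 to 7657 CPM in MLN of the first run, 8705 to 8937 CPM in IL-4eGFP+ node samples and 7079 to 7267 CPM in IL-4eGFP- node samples. The subunits of the 26S particle, which are the alpha and beta rings without the inducible subunits and the 19S cap, gave 3986 to 4119, 4592 to 4948, 6071 to 6301 and 4291 to 4456 CPM in the same order. Within the node run IL-4eGFP+ samples stood above IL-4eGFP- samples, and within the first run MLN stood above lung. The runs differed in animals, age and sequencing, so levels were compared only within a run.

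The immunoproteasome genes followed another order. Psmb8, Psmb9 and Psmb10 summed to 662 to 804 CPM in lung, 999 to 1176 CPM in MLN, 1129.5 to 1169 CPM in IL-4eGFP+ node samples and 1245 to 1339 CPM in IL-4eGFP- node samples. Lung was again below MLN, but in the nodes the order was turned, with IL-4eGFP- samples above IL-4eGFP+ samples. Psme1, Psme2 and the PA28 gamma gene Psme3 together gave 694 to 758, 983 to 1107, 982 to 1092 and 1108 to 1186 CPM, in the same order. Psme1 and Psme2 alone gave 634 to 695, 913 to 1032, 898 to 1011 and 1041 to 1113 CPM. The alpha ring gave 1942 to 2020 CPM in IL-4eGFP+ and 1336 to 1374 CPM in IL-4eGFP- node samples, and the beta ring 2003 to 2091 and 1428 to 1474 CPM. The chaperones that assemble the 20S core gave 121 to 133 CPM in lung and 196 to 202 CPM in MLN of the same run.

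**Figure D1:**
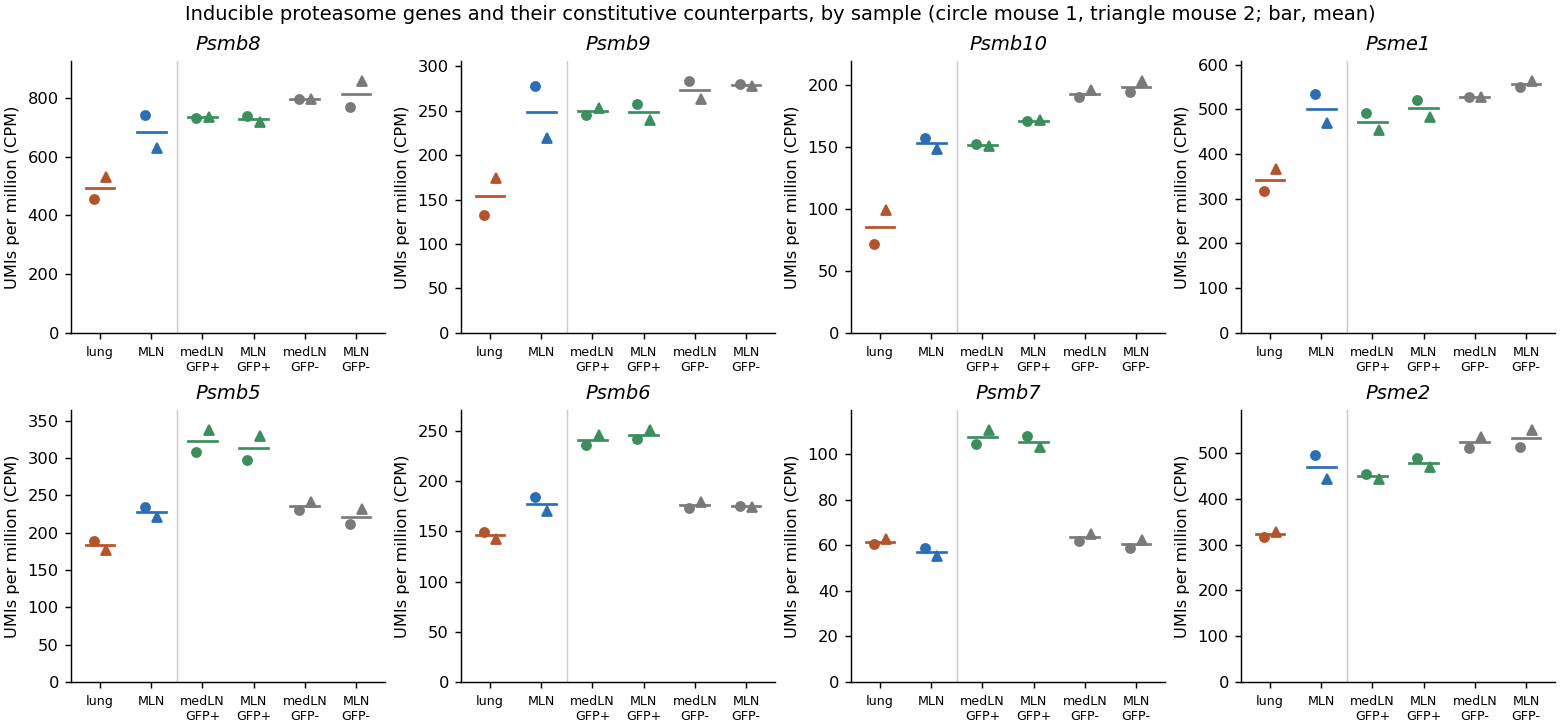
CPM (y axes, linear from 0) of Psmb8, Psmb9, Psmb10, Psme1 and Psme2 and of the constitutive Psmb5, Psmb6 and Psmb7 in each of the 12 samples, with a circle for mouse 1, a triangle for mouse 2, a bar for the group mean and a vertical line between the runs. The first 5 genes are lower in lung than in MLN and lower in IL-4eGFP+ (GFP+) than in IL-4eGFP- (GFP-) node samples. Psmb5, Psmb6 and Psmb7 are higher in IL-4eGFP+ than in IL-4eGFP- node samples. The lung and MLN samples of the first run are IL-4eGFP+ cells as well.

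Of the 50 genes, 48 had enough UMIs to be tested in each comparison. Psmb11, the thymoproteasome subunit of cortical thymic epithelium, had 0 UMIs in all 12 samples, where 3 UMIs would correspond to 0.208 to 1.07 CPM. Psma8, an alpha subunit of male germ cells, had 1 UMI in 1 MLN library of the first run and 1 in 1 IL-4eGFP+ medLN sample. Psmc3ip is a factor of meiotic recombination that carries the symbol by name only. Psme2b is a close copy of Psme2, so the split of reads between them is uncertain.

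The first comparison asked how CD4+IL-4eGFP+ cells of lung differ from those of MLN. Of the 48 tested genes, 0 were higher and 9 were lower in lung, where 17.0% of all 10588 genes tested were called higher and 14.0% lower (edgeR quasi-likelihood test, adjusted p under 0.05). The 9 were the inducible Psmb9, Psmb10, Psme1 and Psme2, the ATPase gene Psmc1 and 4 assembly chaperones. The median log2 fold change of lung over MLN was -0.15 over the 48 genes and -0.0052 over all genes. Fold changes are taken after TMM scaling, while the printed CPM are not scaled this way, so both can differ, by a shift common to all genes that is given below for the organs and for the gates.

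Psmb8 stood at 457.5 and 531 CPM in the lung libraries and at 741 and 631 CPM in the MLN libraries. The groups did not overlap, but the log2 fold change of -0.35 ± 0.13 (SE, n = 2 against 2) missed the threshold (adjusted p = 0.067). With the mouse as a replicate block it passed (adjusted p = 0.0154). Psmb9 gave 133 and 174 CPM in lung against 278 and 219 CPM in MLN, a log2 fold change of -0.58 ± 0.15 (adjusted p = 0.0142). Psmb10 gave 71.7 and 98.9 CPM against 157 and 148 CPM, and at 1.67-fold lower in lung it was the inducible catalytic subunit with the largest change (log2 -0.74 ± 0.13, adjusted p = 0.0024). In each of these genes both MLN libraries lay above both lung libraries. How many of all genes did not overlap between groups was not counted in this or any later comparison.

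The PA28 genes Psme1 and Psme2 were also lower in lung. Psme1 gave 317 and 366 CPM in lung and 535 and 469 CPM in MLN (log2 -0.43 ± 0.12, adjusted p = 0.0247). Psme2 gave 317 and 329 CPM in lung and 497 and 444 CPM in MLN (log2 -0.41 ± 0.12, adjusted p = 0.0283). Neither gene's groups overlapped. MLN library 1 had the highest level of Psmb8, Psmb9, Psmb10, Psme1 and Psme2, and without it Psmb9, Psme1, Psme2 and Psmd10 missed the threshold, which left 5 of the 9. Without MLN library 2, Psme1, Psme2 and Psmg2 missed it.

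The constitutive partners of the inducible subunits showed smaller differences. Psmb5 gave 189 and 177 CPM in lung against 235 and 222 CPM in MLN (log2 -0.18, adjusted p = 0.301), Psmb6 gave 149 and 142 CPM against 184 and 170 CPM (log2 -0.14, adjusted p = 0.411), and Psmb7 gave 60.7 and 62.7 CPM against 58.9 and 55.2 CPM (log2 0.25, adjusted p = 0.139). Among the 31 tested subunits of the 26S particle, Psmc1 alone was called, at 56.3 and 75.3 CPM in lung and 104 and 108 CPM in MLN (log2 -0.58 ± 0.12, adjusted p = 0.0062). Their median log2 fold change was -0.09, and the alpha ring ranged from -0.35 to 0.16.

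The assembly chaperones held the largest difference. Psmg1, which with Psmg2 forms the chaperone of the alpha ring, gave 25.9 and 28.3 CPM in lung and 62.1 and 56.6 CPM in MLN, a 2.01-fold lower level in lung (log2 -1.0 ± 0.13, adjusted p = 0.000372). Psmg2 gave 35.2 and 43.0 CPM against 60.7 and 64.9 CPM (log2 -0.56 ± 0.12, adjusted p = 0.0073). Of the chaperones of the 19S base, Psmd5 gave 25.6 and 28.7 CPM against 46.5 and 45.8 CPM (log2 -0.64 ± 0.13, adjusted p = 0.0046). Psmd10, also known as gankyrin, gave 28.5 and 32.3 CPM against 48.5 and 46.3 CPM (log2 -0.52 ± 0.13, adjusted p = 0.0124). Of the 7 chaperone genes of both kinds, 4 were lower in lung and 0 higher.

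The scaling bears on this comparison. With library totals in place of TMM, the median of all genes moved from -0.0052 to -0.15 and the share of all called genes that were higher in lung moved from 54.9% to 39.0%. The number of proteasome genes lower in lung then rose to 19. Of all 10588 genes tested, 2050 were then lower, up from 1481. A list of genes that respond to tissue dissociation summed to 14541 to 15705 CPM in lung and 4091 to 4621 CPM in MLN, and 17 of its 20 genes were higher in lung. Naive T cell markers stood at 280 to 352 CPM in lung and 821 to 822 CPM in MLN, Th2 markers at 1654 to 2206 and 669 to 681 CPM, endothelial markers at 35.6 to 38.4 and 68.8 to 71.0 CPM, and the cycling list at 1178 to 1620 and 1012 to 1128 CPM. The 4 naive T cell markers did not move together, since 2 were called lower in lung, 1 was called higher and 1 was not called. The endothelial sum was nearly all Pecam1, with 5552 UMIs over all samples of both runs, beside 11 of Cdh5 and 8 of Kdr. Without cycling cells 8 of the 9 genes were still lower in lung, all but Psme2. The part of the other lists in the proteasome differences was not tested.

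Other genes of the pathway moved in both directions. Of 28 other proteasome and ubiquitin genes, 6 were higher and 0 lower in lung, among them the ubiquitin-binding zinc finger genes Zfand5 (log2 1.36) and Zfand2a (1.24) and Nfe2l1 (0.46), which encodes the Nrf1 factor of the proteasome genes. Of 11 antigen presentation genes, 0 were higher and 2 lower, Tapbp (-0.57) and Tap2 (-0.42). Interferon list genes, with 19 of 24 lower in lung and none higher, summed to 452 to 765 CPM there and to 1010 to 1941 CPM in MLN. Among 8 genes of interferon-gamma signalling 2 were higher, the receptor genes Ifngr1 (2.91) and Ifngr2 (1.79), and 1 was lower. No proteasome gene was in these lists.

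The second comparison set IL-4eGFP+ against IL-4eGFP- CD4+ cells of the nodes. Here 35 of the 48 genes were higher and 7 lower in IL-4eGFP+ cells, where 31.3% of all 11279 genes tested were called higher and 31.5% lower. Of the 31 subunits of the 26S particle, 30 were higher and 0 lower. The 7 lower genes were Psmb8, Psmb9, Psmb10, Psme1, Psme2, Psme2b and Psmg4. The median log2 fold change was 0.26 over the 48 genes, 0.28 over the 26S subunits and -0.020 over all genes. The hashtag sample as a replicate block gave the same 35 and 7 genes.

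The constitutive catalytic subunits were higher in IL-4eGFP+ cells. Psmb5 gave 297 and 329.5 CPM in MLN and 308 and 337 CPM in medLN of the IL-4eGFP+ cells, against 211.5, 232, 231 and 241 CPM in the IL-4eGFP- cells (log2 0.28, adjusted p = 0.000477). Psmb6 gave 236 to 251 CPM against 173 to 179.5 CPM (log2 0.27, adjusted p = 3.37e-05). Psmb7 gave 108, 103, 105 and 111 CPM against 58.9, 62.2, 62.0 and 65.2 CPM, 1.5-fold higher (log2 0.58, adjusted p = 2.31e-07). In all 3 genes each IL-4eGFP+ sample lay above each IL-4eGFP- sample. Between the gates 62.8% of all genes tested were called, and the share of all genes without overlap was not counted.

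Psma4, of the alpha ring, showed the largest difference of the 26S subunits at 1.62-fold. It stood at 244, 248, 240 and 250 CPM in IL-4eGFP+ samples and at 130, 131, 139 and 127 CPM in IL-4eGFP- samples (log2 0.70, adjusted p = 2.21e-08). Psma1, of the same ring, gave 178, 181, 175 and 184 CPM against 101, 98.1, 106 and 103 CPM (log2 0.62, adjusted p = 3.59e-08). Psmd1, the large scaffold subunit of the 19S cap, gave 80.0 to 89.9 CPM against 47.2 to 59.2 CPM (log2 0.52, adjusted p = 5.03e-06). Psmb4 gave 223 to 232 CPM against 132 to 148 CPM (log2 0.51, adjusted p = 4.32e-07), and Psmc1 gave 86.8 to 98.0 CPM against 58.4 to 62.9 CPM (log2 0.43, adjusted p = 1.31e-05). The groups did not overlap in any of these. Psmd4, a ubiquitin receptor of the cap, was the subunit that did not pass, at 129.5 to 140 CPM and 111 to 128 CPM. Its direction turned with the scaling, from log2 -0.06 with TMM to 0.14 with library totals (adjusted p = 0.0292).

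The inducible genes had the opposite direction. Psmb8 gave 740, 720, 732 and 736 CPM in IL-4eGFP+ cells and 771, 857, 798 and 796 CPM in IL-4eGFP- cells (log2 -0.34 ± 0.041, adjusted p = 1.76e-05). Psmb9 gave 249 ± 8.32 CPM against 276 ± 9.14 CPM (SD, n = 4 each, log2 -0.35, adjusted p = 9.55e-06). Psmb10 gave 171, 171, 152.5 and 150.5 CPM against 194, 203, 190 and 196 CPM, and was 1.39-fold lower (log2 -0.48, adjusted p = 5.26e-07). Psme1 gave 488 ± 27.9 CPM against 542 ± 17.2 CPM (log2 -0.35, adjusted p = 6.07e-06) and Psme2 465 ± 19.6 CPM against 528 ± 18.0 CPM (log2 -0.38, adjusted p = 2.19e-06). Every IL-4eGFP- sample lay above every IL-4eGFP+ sample in all 5 genes, with the share of all genes that did so not counted. Psmg4, a chaperone of 20S assembly, was lower as well, with 53.9 to 59.9 CPM against 69.6 to 76.2 CPM (log2 -0.57, adjusted p = 1.28e-06).

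**Figure D2:**
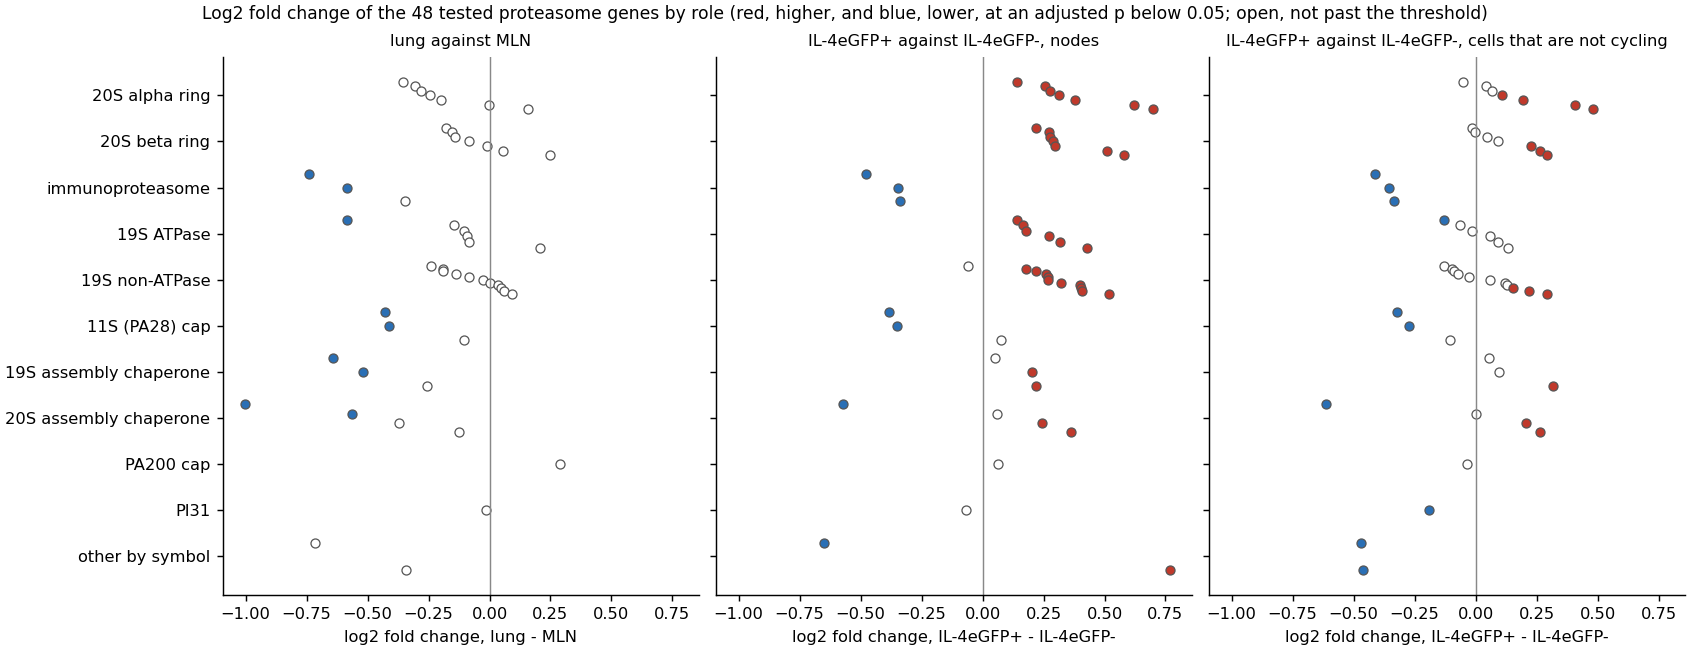
Log2 fold change (x axes) of each of the 48 tested proteasome genes, in rows by role, for lung over MLN and for IL-4eGFP+ over IL-4eGFP- node cells, the latter with all cells and without cycling cells, where red and blue points are higher and lower at an adjusted p below 0.05 and open points did not pass. In lung 9 genes are lower and 0 higher, between the gates 35 are higher and 7 lower, and without cycling cells 13 are higher and 10 lower.

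Cells in division moved with the gate. The summed cycling list stood at 2851 to 3577 CPM in IL-4eGFP+ samples and 444 to 732 CPM in IL-4eGFP- samples, and all 29 tested cycling genes were higher. Without the cells in which the cycling list held 0.1% or more of the UMIs, 13 of the 35 higher genes were still higher and the other 22 were not, while all 7 lower genes were still lower and Psmc3ip, Psmc4 and Psmf1 joined them. In that fit 28.9% of all genes tested were higher and 26.9% lower. The median log2 fold change of the 26S subunits was then 0.07. Psma4 (0.48), Psma1 (0.41), Psmb4 (0.29) and Psmb7 (0.23) remained higher, while Psmb5 (0.09) and Psmb6 (-0.01) did not pass. Psmb8 (-0.36), Psmb9 (-0.33), Psmb10 (-0.41), Psme1 (-0.27) and Psme2 (-0.32) differed nearly as before.

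With library totals in place of TMM, 40 genes were higher and 7 lower in IL-4eGFP+ cells. Of all 11279 genes tested, 5267 were then higher and 2041 lower. The median of all genes moved from -0.020 to 0.18, and the share of called genes that were higher moved from 49.8% to 72.1%. The inducible genes were still lower, but by much less, with log2 values of -0.14 for Psmb8, -0.15 for Psmb9, -0.28 for Psmb10, -0.15 for Psme1 and -0.18 for Psme2 (adjusted p from 5.77e-05 for Psmb10 to 0.0048 for Psmb9). The constitutive genes differed by more, with log2 values of 0.48 for Psmb5, 0.47 for Psmb6, 0.78 for Psmb7 and 0.90 for Psma4. Naive T cell markers stood at 756 to 920 CPM in IL-4eGFP+ and 1584 to 1741 CPM in IL-4eGFP- samples, the myeloid markers at 168 to 219 and 102 to 123 CPM, and the CD8 markers at 6.70 to 11.6 and 19.1 to 24.0 CPM. The CD8 sum was nearly all Cd8b1, with 1294 UMIs over all samples of both runs, beside 64 of Cd8a. Cd8a overlapped between the gates, at 0.0944 to 1.37 CPM in IL-4eGFP+ and 0.260 to 1.15 CPM in IL-4eGFP- samples. The part of these markers in the result was not tested.

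The ratio of an inducible subunit to the constitutive subunit whose place it takes does not depend on scaling. In the nodes the ratio of Psmb8 to Psmb5 UMIs was 2.49, 2.19, 2.37 and 2.18 in IL-4eGFP+ samples and 3.65, 3.70, 3.46 and 3.31 in IL-4eGFP- samples. Psmb9 to Psmb6 was 1.02 ± 0.048 in IL-4eGFP+ and 1.57 ± 0.075 in IL-4eGFP- cells (SD, n = 4 each). Psmb10 to Psmb7 was 1.51 ± 0.13 and 3.15 ± 0.14, a 2.09-fold difference. The gates did not overlap in any of the 3 ratios, each with an exact permutation p of 0.0286, two-sided, which is the smallest that 4 against 4 samples allow (0.0286 after adjustment over the 3 ratios). The 4 samples of a gate are 2 nodes of 2 mice, and the same mouse and node gave a sample to each gate. With these pairs kept, the ratios were lower in IL-4eGFP+ cells in 4 of 4 pairs, for which an exact paired permutation test gives 0.125, the smallest it can give. Within each ratio, neither gene overlapped between the gates above, and the 2 genes went in opposite directions. The outcome of both tests was therefore fixed by the single genes and adds no further result. A ratio shows unequal change of both genes and not which of them changed. All cells entered the ratios, and 14.0% to 17.4% of IL-4eGFP+ and 2.2% to 3.0% of IL-4eGFP- cells were cycling. Psmb5, Psmb6 and Psmb7 were higher in cycling cells, as given below. The part of cycling cells in the ratios was not tested.

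In the first run Psmb10 to Psmb7 was 1.18 and 1.58 in lung and 2.67 and 2.69 in MLN, 1.96-fold higher in MLN. Psmb9 to Psmb6 was 0.889 and 1.22 in lung and 1.51 and 1.29 in MLN, and Psmb8 to Psmb5 was 2.42 and 3.00 in lung and 3.15 and 2.85 in MLN. The last ratio overlapped between the organs and the other 2 did not. An exact test of 2 against 2 libraries cannot go below p = 0.333. All 3 ratios were higher in the MLN libraries of the first run than in the IL-4eGFP+ MLN samples of the node run. In the latter Psmb10 to Psmb7 was 1.58 and 1.66, Psmb9 to Psmb6 was 1.07 and 0.955, and Psmb8 to Psmb5 was 2.49 and 2.19. The ratios of the same gate and node therefore differed between the runs, which also differed in animals, age and sequencing. A productive TCR was required only in the first run. Cycling cells made up 5.69% and 5.44% of its MLN cells, against 13.96% and 17.22% of IL-4eGFP+ MLN cells in the node run. The part of these differences in the ratios was not tested. Each gate of the node run was 1 library, so gate and library cannot be told apart in the ratios either.

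**Figure D3:**
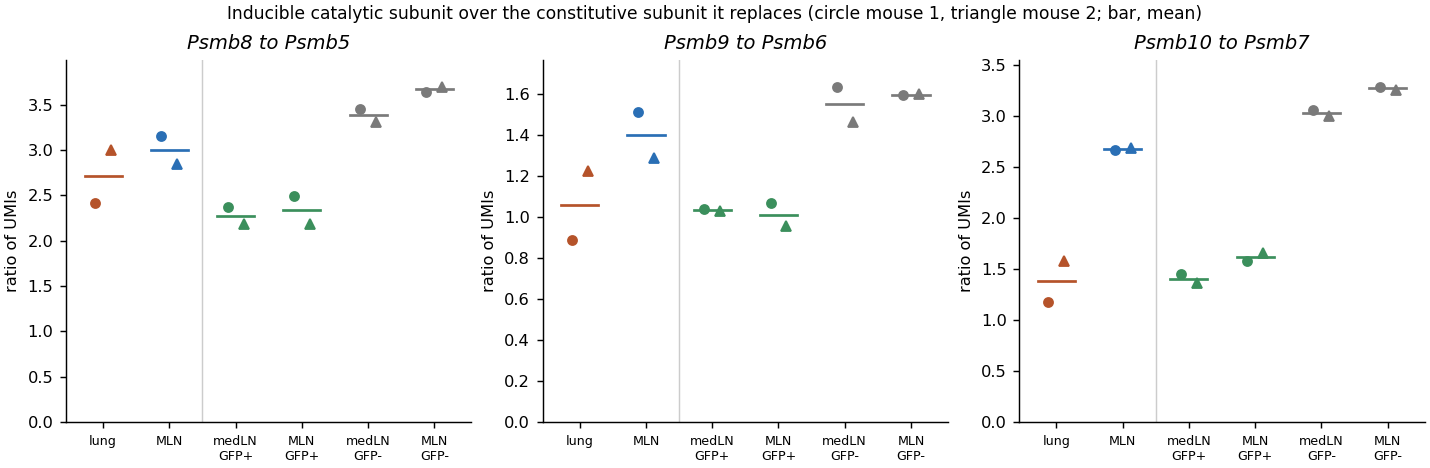
Ratio of summed UMIs of Psmb8 to Psmb5, Psmb9 to Psmb6 and Psmb10 to Psmb7 (y axes, linear from 0), with 1 point for each of the 12 samples. The sums are over all cells of a sample, cycling cells included. The circle is mouse 1, the triangle mouse 2 and the bar the group mean, and all 3 ratios are lower in the 4 IL-4eGFP+ than in the 4 IL-4eGFP- node samples, for Psmb10 to Psmb7 at means of 1.51 and 3.15.

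Beyond the proteasome genes, 8 of 29 other proteasome and ubiquitin genes were higher and 13 lower in IL-4eGFP+ cells. Pomp, which completes 20S assembly, was higher (log2 0.57), whereas Rps27a (-0.75), which encodes ubiquitin fused to a ribosomal protein, and the Nrf2 gene Nfe2l2 (-0.63) were lower. Of 11 antigen presentation genes 3 were higher, the endoplasmic reticulum chaperones Calr (0.85), Pdia3 (0.69) and Canx (0.68), and 7 were lower, led by the MHC class I activator Nlrc5 (-0.94). Interferon list genes were lower in 17 and higher in 2 of 23. Of 8 interferon-gamma signalling genes, 6 were lower, including Socs1 (-1.61), Ifngr2 (-1.43) and Ifngr1 (-1.36), and Jak2 (1.31) was higher.

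The node run was also used to compare medLN, which drains the lung, with MLN within each gate. In IL-4eGFP+ cells 0 of the 48 genes were called, where 1.28% of all genes tested were, and DESeq2 called 0 as well. At an unadjusted p under 0.05 there was 1 gene, Psmb10, at 152.5 and 150.5 CPM in medLN and 171 and 171 CPM in MLN (log2 -0.18 ± 0.057, adjusted p = 0.216). The 48 log2 fold changes ranged from -0.20 to 0.08, with SEs of 0.042 to 0.16 (lowest and highest gene).

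In IL-4eGFP- cells 0 genes were called by edgeR and 0 by DESeq2, with 0.178% of all genes called. Here Psme1 and Psmf1 had an unadjusted p under 0.05, at log2 -0.13 and -0.23 (adjusted p = 0.62 for both), and the 48 values ranged from -0.26 to 0.20. The test of whether the organ difference itself differed between the gates called 0 genes by either tool, with 0.156% of all genes called and 0 proteasome genes at an unadjusted p under 0.05. Its values ranged from -0.14 to 0.25. With library totals in place of TMM, the share of called genes that was higher in medLN moved from 84.2% to 94.7% in IL-4eGFP- cells. These shares rest on few genes, 16 higher and 3 lower with TMM and 18 and 1 with library totals. The positive share of the interaction moved from 44.4% (8 positive, 10 negative) to 32% (8 and 17). With 2 mice per group, differences of this size were not detectable here, which does not show that the nodes are alike.

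To relate the gene groups to the state of the cells, each sample was split by genes that include no proteasome gene, and both classes of the same sample were compared with the sample as a block. Cycling cells were those with at least 0.1% of their UMIs in 29 genes of DNA replication and mitosis. They numbered 49 and 111 in the lung libraries, 41 and 140 in MLN, 278 to 352 in IL-4eGFP+ and 48 to 64 in IL-4eGFP- node samples. The class is a range and not a cell type, since 496 and 2099 cells of the 2 runs lay between 0.05% and 0.2%. Cycling cells had medians of 11752 to 14333 UMIs in the first run and 6328 to 10311 in the node run, against 4854 to 6661 and 2959 to 3416 in the other cells.

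In the first run 32 of the 48 genes were higher and 0 lower in cycling cells, where 20.8% of all 9612 genes tested were higher and 22.7% lower. In the node run 37 were higher and 3 lower, where 26.4% of all 11461 genes were higher and 34.0% lower. Among the 31 subunits of the 26S particle, 27 and 30 were higher, with medians of 0.54 and 0.66 on the log2 scale, beside -0.09 and -0.11 over all genes. The alpha ring (7 of 7) and the 19S ATPases (6 of 6) were higher throughout in both runs.

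Psmd1 had the largest fold among genes of at least 20 CPM. In the first run its level in cycling and other cells was 92.2 and 50.7 CPM in lung 1, 76.7 and 52.5 CPM in lung 2, 121 and 57.2 CPM in MLN 1 and 88.1 and 52.6 CPM in MLN 2 (log2 0.89 ± 0.13, adjusted p = 1.55e-05). Over the 8 node samples the cycling sums had a lowest, median and highest value of 73.7, 124 and 134 CPM and the other cells of 45.3, 54.7 and 63.7 CPM (log2 1.10 ± 0.078, adjusted p = 2.87e-08). Psmd1 was higher in 4 of 4 and 8 of 8 samples, without overlap between the classes.

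The constitutive catalytic subunits were higher as well. Psmb7 stood at 81.3, 97.0, 109 and 74.5 CPM in cycling cells of the 4 libraries and at 56.0, 52.5, 50.4 and 52.3 CPM in their other cells (log2 0.82 ± 0.14, adjusted p = 8.93e-05). Over the node samples its lowest, median and highest values were 98.3, 132 and 156 CPM against 54.9, 66.8 and 83.6 CPM (log2 0.98, adjusted p = 1.64e-08). Psmb5 gave 223 and 182 CPM in lung 1, 247 and 156 CPM in lung 2, 311 and 222 CPM in MLN 1 and 317 and 207 CPM in MLN 2 (log2 0.54, adjusted p = 0.000606), and 310, 363 and 412 CPM against 205, 242 and 286 CPM in the node run (log2 0.58). Psmb6 changed by log2 0.67 and 0.68. All 3 genes were higher in every sample.

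Other members named by size in the first run were Psmc4 (log2 0.74) and Psmc6 (0.62) of the ATPase ring, Psmd14 (0.71), the deubiquitinase of the cap, Psmd13 (0.67) and Psma4 (0.69). Psmc4, for example, stood at 122 to 160 CPM in cycling cells and 76.0 to 107 CPM in the other cells. The node run named Psmd7 (0.87), Psmd13 (0.85), Psmc1 (0.85), Psma1 (0.76) and Psmd14 (0.74). Psmd7, the partner of Psmd14, gave 125, 169 and 193 CPM against 82.5, 90.2 and 93.7 CPM (lowest, median and highest). Each was higher in every sample of its run. These genes, like Psmd1, were named for the size of this same change, so that is no separate support. Psme3, the PA28 gamma subunit of the nucleus, was higher in 3 of 4 and 8 of 8 samples (0.39, adjusted p = 0.0222, and 0.45, adjusted p = 0.000245). Without MLN library 1 the first run called 27 genes, and Psme3 was among those that no longer passed.

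None of the inducible genes passed the test as higher in cycling cells. In the first run the log2 values were 0.15 for Psmb8 (higher in 3 of 4 samples), 0.24 for Psmb9 (higher in 4 of 4, adjusted p = 0.0612), -0.12 for Psmb10, 0.00 for Psme1 and 0.09 for Psme2. Psmb10 was lower in cycling cells of the node run, at 124, 138 and 170 CPM against 164, 187 and 205 CPM (log2 -0.34 ± 0.085, adjusted p = 0.0035). Psme1 was also lower, at 417, 493 and 516 CPM against 481, 531 and 566 CPM (log2 -0.16 ± 0.047, adjusted p = 0.0095), which it no longer was without the block. Both were lower in 8 of 8 samples. Psmb8 gave 738, 765 and 863 CPM against 708, 746 and 862 CPM (log2 0.04, higher in 6 of 8 samples, adjusted p = 0.56), and the log2 values of Psmb9 (0.01) and Psme2 (-0.11) did not pass either. Psme2b (-0.45) was the third gene that was lower, and Psmc3ip, the recombination factor, was higher in both runs (3.03 and 2.76).

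**Figure D4:**
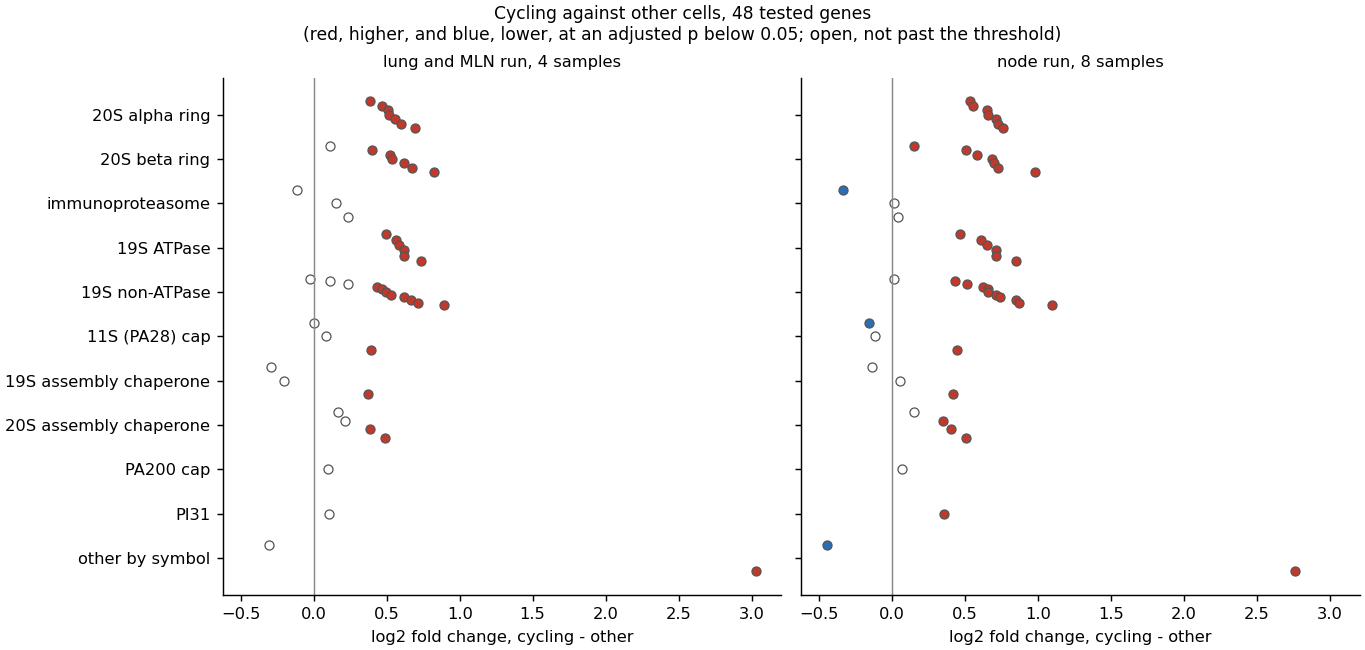
Log2 fold change (x axes) of cycling over other cells for the 48 tested proteasome genes, in rows by role, in the lung and MLN run and in the node run, with red, blue and open points for higher, lower and not past an adjusted p of 0.05. The 26S subunits lie mostly above 0, with medians of 0.54 and 0.66, while Psmb8, Psmb9, Psmb10, Psme1 and Psme2 lie between -0.34 and 0.24.

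Related genes split in the same comparison. Of the other proteasome and ubiquitin genes, 8 of 28 and 12 of 29 were higher, among them the proteasome-bound deubiquitinase Uchl5 (0.99 and 1.24) and the cap-associated Txnl1 (0.68 and 0.84), and 5 and 6 were lower, including Nfe2l1 (-0.76) in the first run and Nfe2l2 (-0.65) in the node run. Of 11 antigen presentation genes 5 and 7 were lower, where 22.7% and 34.0% of all genes tested were lower. H2-K1 stood at -0.60 and -0.90 and Nlrc5 at -0.65 and -1.22. Interferon list genes were lower in 21 and 22 of 23, and interferon-gamma signalling genes in 7 of 8 in each run.

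The last comparison took, in each sample, the 10% of cells with the highest share of UMIs in a list of interferon-induced genes, which numbered 42 to 246 in the first run and 199 to 225 in the node run. The class marks the upper end of a range in each sample. Its lowest share of interferon UMIs was 0.0942% and 0.175% in the lung libraries, 0.214% and 0.534% in MLN and 0.244% to 0.437% in the node samples. In the first run 6 of the 48 genes were higher and 0 lower, where 2.84% of all 9405 genes tested were higher and 1.13% lower. In the node run 6 were higher and 8 lower, with 6.20% and 8.43% of all 11168 genes. The higher genes in both runs were Psmb8, Psmb9, Psmb10, Psme1, Psme2 and Psme2b.

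Psmb10 had the largest fold of the catalytic subunits. Its level in interferon-high and other cells was 109 and 68.3 CPM in lung 1, 179 and 92.0 CPM in lung 2, 277 and 146 CPM in MLN 1 and 158 and 147 CPM in MLN 2 (log2 0.72 ± 0.13, adjusted p = 0.00184). Over the node samples the lowest, median and highest values were 248, 300 and 404 CPM in the class and 140, 167 and 189 CPM in the other cells (log2 0.92 ± 0.069, adjusted p = 2.08e-11). The class was higher in 4 of 4 and 8 of 8 samples, and MLN 2 showed the smallest gap.

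Psmb8 gave 554.5 and 449 CPM in lung 1, 690 and 517 CPM in lung 2, 1094 and 708.5 CPM in MLN 1 and 873 and 607 CPM in MLN 2 (log2 0.50 ± 0.078, adjusted p = 0.000572), and in the node run 924, 1024 and 1204 CPM against 699, 735 and 821 CPM (log2 0.52 ± 0.045, adjusted p = 5.78e-10). Psmb9 gave 159 and 130.5 CPM, 313 and 162 CPM, 409 and 266 CPM and 272 and 214 CPM in the same order of libraries (log2 0.56 ± 0.11, adjusted p = 0.0031), and 294, 390 and 417 CPM against 230, 250 and 270 CPM in the node run (log2 0.62 ± 0.059, adjusted p = 2.89e-09). The classes did not overlap in the node run for Psmb8, Psmb9 or Psmb10.

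The activators rose with them. Psme1 gave 445 and 305 CPM in lung 1, 493 and 355 CPM in lung 2, 718.5 and 518 CPM in MLN 1 and 591 and 457 CPM in MLN 2 (log2 0.49 ± 0.073, adjusted p = 0.000345). Psme2 gave 389 and 310 CPM, 488 and 315 CPM, 659 and 482 CPM and 473 and 441 CPM in the same order (log2 0.39 ± 0.087, adjusted p = 0.0131). Both changed by log2 0.48 in the node run and were higher in 8 of 8 samples. Psme3 did not pass in either run (0.09 and -0.25). Without MLN library 1 only Psmb8 and Psme1 passed in the first run, and without the library as a block none of the 6 did, at log2 values between 0.41 and 0.72 for the 5 named inducible genes.

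The 8 genes that were lower in interferon-high node cells were Psmd1 (log2 -0.46 ± 0.092, adjusted p = 0.000528), Psmd12 (-0.32), Psmd7 (-0.32), Psmd2 (-0.29), Psma1 (-0.28), Psmc6 (-0.27), Psma6 and Psmc3ip (-1.41). Psmd1 stood at 36.3, 48.9 and 66.6 CPM (lowest, median and highest) in the class and at 47.9, 71.5 and 91.9 CPM in the other cells, and was lower in 8 of 8 samples. All 29 cycling genes were lower in the same class. When the class was taken among cells that were not cycling, 7 genes were higher, the 6 above and Psma2 (0.28), and 0 were lower, where 4.36% of all genes were higher and 1.38% lower. Psmb8 (0.57), Psmb9 (0.63), Psmb10 (0.90), Psme1 (0.46) and Psme2 (0.48) then differed much as before. In the same fit Psmb5 (0.04), Psmb6 (0.02) and Psmb7 (0.16) did not pass.

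**Figure D5:**
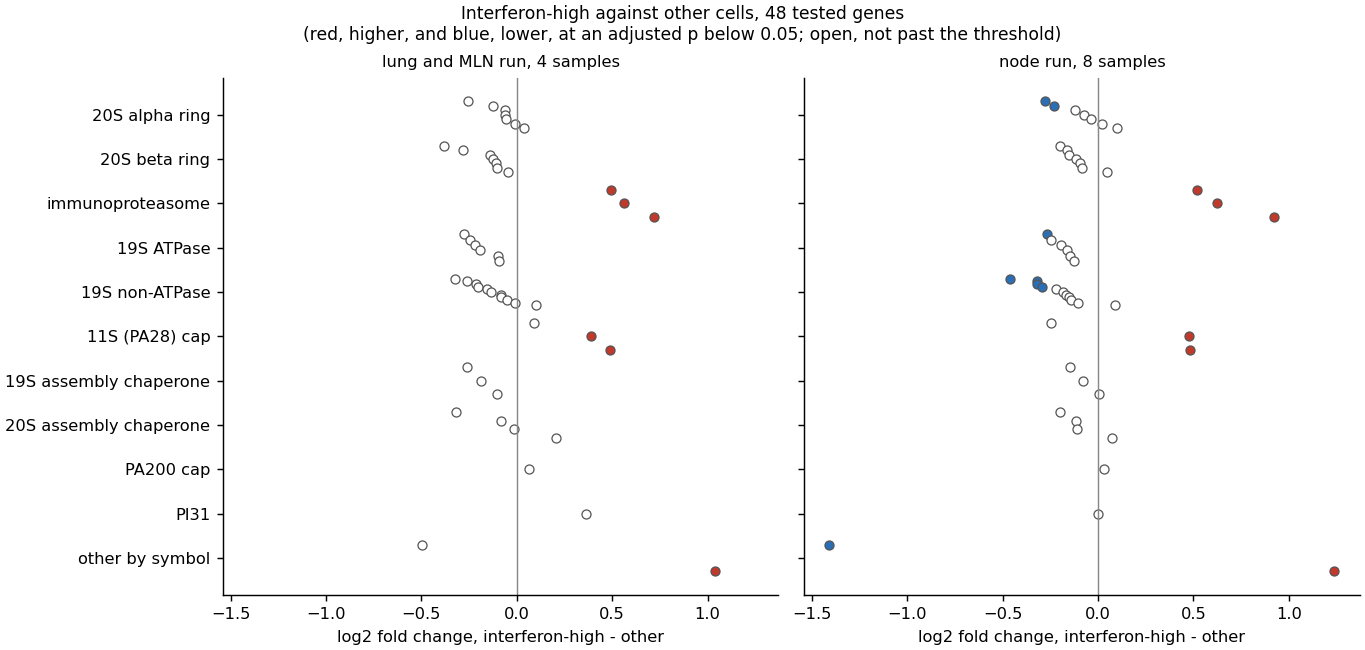
Log2 fold change (x axes) of interferon-high over other cells for the 48 tested proteasome genes, in rows by role, in both runs, with red, blue and open points for higher, lower and not past an adjusted p of 0.05. The 3 immunoproteasome genes and 2 of the 3 PA28 genes are higher in both runs (0.39 to 0.92), and blue points are seen only in the node run.

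Antigen presentation genes stood with the inducible subunits. Of 11 genes, 7 were higher and 0 lower in the first run, and 9 were higher and 2 lower in the node run. Tap1, the neighbour of Psmb9, changed by log2 1.12 and 1.07, Nlrc5 by 1.06 and 1.33 and Tapbp by 0.92 and 0.99. Of 8 interferon-gamma signalling genes 5 were higher and 0 lower in each run, with Irf1 at 1.07 and 1.00. None of the other proteasome and ubiquitin genes was called in the first run, and in the node run 4 of 29 were lower, among them Uchl5 (-0.54).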

How the data were processed

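UMI counts per gene and cell were deposited by the authors as filtered matrices. Per the labels and the study's methods, FASTQ files were made with Cell Ranger 2.1.1 and aligned to mm10 with 3.0.1 for lung and MLN, and the node run was aligned and aggregated with 6.1.2. Whether aggregation thinned reads is not given in the sources used here. Deposited UMI counts of TCR contigs served only to filter cells.

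Cells with more than 500 UMIs, more than 500 genes, under 7% mitochondrial UMIs and a novelty score above 0.8 were kept. In the lung and MLN run a productive TCR alpha and beta chain was also required, and no doublet caller was run. In the node run hashtags were called with Seurat 5.3.0 (HTODemux, quantile 0.99), and doublets and negatives were dropped. The gate of a node cell was read from the number in its barcode suffix and sample title.

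UMIs were summed per sample without TCR genes and tested with edgeR 4.0.16 in R 4.3.3 (filterByExpr, TMM, quasi-likelihood test, Benjamini-Hochberg over all genes tested, threshold 0.05), with organ as covariate between the gates. In the class comparisons both sums of a sample shared a block. The edgeR test was first run on simulated data for the design of each comparison except the interaction. The simulated counts held no block effect, and the other methods were not simulated. Ratios used exact permutation tests in scipy 1.17.1 (Python 3.11.15). Values are given for Psmb5 to Psmb10, Psme1 and Psme2 and for up to 6 other members with the largest called change at a mean of at least 20 CPM, and for up to 4 genes of each further list. Members, lists and tests were chosen with earlier results of these data known.

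Samples with the same number came from the same mouse by design. Correlations of their deviations from the group means were 0.0399 for lung and MLN, 0.147 to 0.218 between the gates, and 0.236 and 0.112 between the nodes. Between the gates the deviations were from the gate mean over both nodes, so these correlations also hold the difference between the nodes. Alternatives were DESeq2 1.42.0, its size factors, library totals, no filter on low counts, blocks, samples left out and other sets of cells. With 2 mice per organ, p-values rest on few animals. Some genes of the further lists are not reported here.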

Additional observations from a re-analysis of the deposited data

Results flagged for a closer look

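Of the effects of cell class that were compared between organs or gates of 1 run, 1 of 50 had opposite signs in every sample of the groups. Psme1, the PA28 alpha activator gene, was slightly higher in cycling than in other cells of both lung libraries (log2 ratio of CPM 0.059 and 0.041) and lower in both MLN libraries (-0.18 and -0.035), which puts the mean effects 0.158 apart. The difference was not tested, and the gene did not pass the test in this run. Of 28 groups of 4 samples, 0 held a sample that stood apart from the others by Dixon's criterion.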

How the results depend on the processing

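Of 1345 recomputed values for 101 gene results, 1232 kept direction and side of the threshold. Among those of the 101 results past the threshold 1 value changed sign, Psmb6 between the gates without cycling cells (-0.0146). The other 58 changes of sign within the 101 results were in genes that did not pass. Outside these results, Psmc3ip and Psmc4 were called higher between the gates with all cells and lower without cycling cells. The cause of these changes was not tested.

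The number of proteasome genes called between lung and MLN was 19 with library totals in place of TMM and 5 to 11 without 1 library, and between the gates it was 23 without cycling cells. For interferon-high cells of the first run it was 0 with no replicate block (edgeR, with 6 at an unadjusted p under 0.05) and 2 to 6 without 1 library, and in the node run 8 with no replicate block and 7 among cells that were not cycling. The mouse as a replicate block gave 13 genes between lung and MLN, and the block changed no call of a gene between the gates or between the nodes. The interaction was not fitted with a block. Keeping the pairs, a choice made after the values were seen, moved the p of each ratio between the gates from 0.0286 to 0.125.

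With library totals, values between the nodes changed sign for Psmb8 (0.00676) and Psmb9 (0.00368) in IL-4eGFP+ and Psmb6 (0.0119) in IL-4eGFP- cells, and in the interaction for Psme1 (-0.0123), Psmb5 (-0.0462), Psmb6 (-0.0452) and Psmb7 (-0.042). Without cycling cells they did for Psmb5 (-0.0234) and Psmb7 (-0.103) in IL-4eGFP+ and Psmb7 (-0.00413) in IL-4eGFP- cells, and in the interaction for Psme2 (0.0283), Psmb5 (-0.053), Psmb6 (-0.0569) and Psmb7 (-0.0969, and -0.00577 with the leading hashtag at 90% or more). In cycling cells of the first run Psme1 changed sign with library totals (-0.0346), no filter (-0.0312), no cells with extra TCR chains (-0.00475) and a limit of 0.2% (-0.0312), and in the node run Psmb9 did with no filter (-0.0141). In interferon-high node cells that were not cycling Psmb5 (0.0396), Psmb6 (0.0159) and Psmb7 (0.158) did.

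Leaving out 1 sample, values between the nodes ranged over 0 for Psmb8 (-0.0119 to 0.00605), Psmb9 (-0.0489 to 0.0381), Psmb5 (-0.0508 to 0.12) and Psmb7 (-0.013 to 0.0505) in IL-4eGFP+ cells, and for Psmb8 (-0.176 to 0.00855), Psmb5 (-0.0472 to 0.117) and Psmb7 (-0.0397 to 0.0702) in IL-4eGFP- cells. In the interaction the ranges were -0.0227 to 0.182 for Psmb8, -0.0293 to 0.0974 for Psme1, -0.101 to 0.0466 for Psme2, -0.0964 to 0.0928 for Psmb5, -0.0373 to 0.0414 for Psmb6 and -0.0634 to 0.0663 for Psmb7. In cycling cells they were -0.0376 to 0.012 for Psme1 and -0.0264 to 0.13 for Psme2 in the first run and -0.0142 to 0.0479 for Psmb9 in the node run. Where 1 sample of a group remained, it was taken to vary like the others.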
